A study of Mus musculus with 9 samples.

Results

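The genes examined here cut proteins into peptides and load those peptides onto MHC class I molecules. They were chosen by symbol: the peptide transporter genes Tap1 and Tap2, the loading chaperone gene Tapbp, the trimming peptidase gene Erap1, the immunoproteasome genes Psmb8, Psmb9 and Psmb10, the proteasome activator genes Psme1 and Psme2, and the transactivator gene Nlrc5. All 10 were found among the 22322 genes of the deposited table, and all 10 were among the 10866 genes that averaged 1 FPKM or more over the libraries and were tested (FPKM are read fragments scaled by transcript length and sequencing depth). The cells were long-term haematopoietic stem cells (LT-HSCs), sorted from bone marrow as Lin- cells positive for Sca-1, c-Kit and CD150 and negative for CD135 and CD48. Each of the 9 libraries held RNA of 500 to 800 cells from 1 mouse. The mice were of strain C57BL/6, aged 6 to 8 weeks, with no treatment named: 3 wild type (WT), 3 Cxcl10-/-, without the gene of an interferon-induced chemokine, and 3 Cxcr3-/-, without the gene of its receptor. How the alleles were made, and whether the WT mice were littermates, is not given in the sources used here.

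As background, every nucleated cell degrades cytosolic proteins in the proteasome. Under interferon, the catalytic subunits encoded by Psmb5, Psmb6 and Psmb7 can be replaced by those of Psmb8, Psmb9 and Psmb10, which gives the immunoproteasome, and PSME1 and PSME2 form the PA28 activator that docks on its ends. The heterodimer of TAP1 and TAP2 pumps the peptides into the endoplasmic reticulum, ERAP1 trims them there, and tapasin, the product of Tapbp, bridges the transporter to empty class I molecules. NLRC5 switches on transcription of class I genes and of several genes of this pathway.

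In RefSeq's protein-coding gene order (GRCm38.p6), Psmb9, Tap1, Psmb8 and Tap2 were consecutive neighbours on chromosome 17, inside the MHC class II region, and Tapbp lay elsewhere on the same chromosome. Psme1 and Psme2 lay on chromosome 14 with the gene Emc9 between them, Psmb10 and Nlrc5 on chromosome 8 and Erap1 on chromosome 13. RefSeq promoter sequence was found for 8 of the 10 genes. The 4 stretches printed here belong to some of the genes that the comparisons turn on. The first is the whole interval between the divergent start sites of Psmb9 and Tap1, 225 bases that both genes share, and the other 3 are the 250 bases before the start of Tapbp, Psmb8 and Psme1. Each is read 5′ to 3′ on the plus strand of GRCm38.p6, and capitals mark matches, on either strand, to the motifs searched.
Psmb9-Tap1 (chr17:34187331-34187555): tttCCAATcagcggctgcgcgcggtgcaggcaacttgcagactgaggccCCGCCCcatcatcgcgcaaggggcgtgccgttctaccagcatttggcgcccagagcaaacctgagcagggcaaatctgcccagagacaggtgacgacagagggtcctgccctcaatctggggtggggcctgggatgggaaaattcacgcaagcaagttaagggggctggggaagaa
Tapbp (chr17:33919228-33919477): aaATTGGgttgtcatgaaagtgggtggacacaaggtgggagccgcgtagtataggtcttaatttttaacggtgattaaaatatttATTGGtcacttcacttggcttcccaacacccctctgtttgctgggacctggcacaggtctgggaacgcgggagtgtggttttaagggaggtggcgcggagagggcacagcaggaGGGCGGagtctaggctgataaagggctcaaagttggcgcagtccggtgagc
Psmb8 (chr17:34197945-34198194): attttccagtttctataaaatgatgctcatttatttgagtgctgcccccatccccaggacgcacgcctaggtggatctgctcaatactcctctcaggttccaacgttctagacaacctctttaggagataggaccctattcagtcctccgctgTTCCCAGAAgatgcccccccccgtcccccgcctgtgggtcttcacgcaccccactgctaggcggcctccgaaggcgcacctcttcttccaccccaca
Psme1 (chr14:55578244-55578493): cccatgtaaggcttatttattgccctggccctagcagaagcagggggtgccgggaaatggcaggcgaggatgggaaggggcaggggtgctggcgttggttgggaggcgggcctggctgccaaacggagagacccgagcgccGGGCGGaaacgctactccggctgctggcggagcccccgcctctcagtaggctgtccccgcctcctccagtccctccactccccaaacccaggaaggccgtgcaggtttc

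The following patterns were searched on both strands in the 250 bases before each start: CCAAT (the CCAAT box), GGGCGG (the GC box), TTCNNNGAA (a STAT element), GAAA followed after any 2 bases by GAAA (an interferon regulatory factor element) and GGGA followed after any base by TTTCC (a kappaB site). The CCAAT box was present before Tap1, Psmb9 and Tapbp, where Tap1 and Psmb9 share a single match, and in 33.8% of all 32851 promoters. The GC box was present before Tap1, Psmb9, Tapbp, Psme1 and Psme2 and in 32.7% of all promoters. The STAT element was present before Psmb8 alone of the 8 genes and in 7.02% of all promoters. Neither of the other patterns was in these windows, against 2.98% (the interferon regulatory factor element) and 0.356% (the kappaB site) of all promoters. No pattern was found before Psmb10, a gene that also passed in the comparisons below and whose stretch is not printed. A match is a description of the letters and no sign of binding.

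The libraries held between 12098498 and 17904629 expected counts, and each of the 10 genes had between 90 and 11553 counts in a library. Cxcl10 itself had 0 counts in each Cxcl10-/- library, against 36, 84 and 3 in WT and 112, 553 and 176 in Cxcr3-/-. The WT level of Cxcl10 was thus low, with 1 library near 0. Cxcr3 had 0, 0 and 8 counts in WT, so the Cxcr3-/- label could not be checked from its level. The Cxcl10-/- libraries stood apart in composition: mitochondrial transcripts took 3.57% to 4.13% of their counts, against 12.6% to 13.1% in WT and 10.2% to 11.2% in Cxcr3-/-. The LT-HSC marker genes Procr (16.4 to 69.2 FPKM), Hlf (57.6 to 82.3) and Meis1 (59.1 to 90.9) were present in all 9 libraries. The 12 LT-HSC markers summed to 756 to 875 FPKM in WT and 758 to 874 in Cxcl10-/-. Slamf1 (which encodes CD150) was lower in Cxcl10-/- without overlap, at 0.69 to 4.12 FPKM against 5.23 to 7.4 in WT. Kit (45.8 to 81.4 against 98.1 to 110) and Meis1 (59.1 to 76.2 against 80.5 to 83.7) were also lower. Hoxa9 was higher (37.8 to 67.7 against 31.6 to 36.5), and the other LT-HSC markers overlapped WT. Among genes of cells that the sort excludes, Flt3 (which encodes CD135) was listed at 4.17 to 13.8 FPKM and Cd48 at 0 to 20.1 FPKM over all libraries. Markers of other cells differed more between genotypes. The 10 endothelial markers summed to 431 to 600 FPKM in Cxcl10-/-, with all 10 at a mean of at least 1 FPKM, against 55.3 to 75.3 in WT (3 of 10) and 40.5 to 73 in Cxcr3-/- (5 of 10). Fabp4 (287 to 455 FPKM) made up most of the sum in Cxcl10-/-. Pecam1 and Emcn overlapped WT there, while the other endothelial markers lay above WT without overlap. The 6 stromal markers summed to 11.4 to 155 FPKM in Cxcl10-/-, 0.67 to 3.27 in WT, where Adipoq and Col1a1 were at 0, and 1.26 to 1.86 in Cxcr3-/-. Of these, Cxcl12 (10.8 to 119 FPKM) and Adipoq (0.05 to 21.8) lay above WT in Cxcl10-/- without overlap. Lepr, Col1a1, Col1a2 and Pdgfrb overlapped WT. The 6 neutrophil markers summed to 13.9 to 179 FPKM in Cxcl10-/- (with Elane and Camp at 0), 11.1 to 22.8 in WT and 4.89 to 24.8 in Cxcr3-/-, and the 6 erythroid markers to 84.1 to 623, 48.7 to 92.1 and 48.8 to 56.9 FPKM. The part of such cells in the differences given here was not tested, and in bulk RNA fewer cells of a type and less RNA per cell cannot be told apart. The summed levels of macrophage, dendritic, B and T or NK cell markers lay lower in Cxcl10-/- than in WT or overlapped it: they summed to 392 to 456, 185 to 361, 39.3 to 134 and 171 to 225 FPKM there, against 557 to 688, 212 to 308, 48.6 to 70.3 and 332 to 401 FPKM in WT and 221 to 406, 256 to 774, 13.7 to 77 and 201 to 406 FPKM in Cxcr3-/-. The defining genes Itgax and Batf3 (dendritic cells), Cd3d and Trac (T cells) and Ms4a1 (B cells) were at 0 to 0.31 FPKM in all 9 libraries, while Lyz2 (370 to 441 FPKM), Cd74 (113 to 239), Cd79b (39.3 to 132) and Nkg7 (170 to 225) made up most of the respective sums in Cxcl10-/-. Of the macrophage genes, C1qb was higher in Cxcl10-/- without overlap, at 5.68 to 16.6 FPKM against 0.6 to 4.16 in WT and 0.61 to 3.42 in Cxcr3-/-, while Adgre1 and Ms4a7 were at 0 there.

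In WT LT-HSCs the proteasome genes of this group were abundant and the loading genes moderate. Per transcript length, the activator genes led, with Psme2 at 588 ± 38.2 FPKM (SD, n = 3) and Psme1 at 388 ± 60.9 FPKM, the 97.9th and 96.9th percentiles of the tested genes. Psmb8 followed at 274 ± 32.4 FPKM. Psmb10 (117 ± 11.2 FPKM) and Psmb9 (114 ± 9.06 FPKM) were not distinguishable from each other at that spread. Tapbp (25.3 ± 4.32 FPKM), Erap1 (22.2 ± 5.96), Nlrc5 (20.4 ± 2.44) and Tap1 (16.2 ± 3.01) followed, each with libraries that overlapped those of its neighbour in that order. Tap2 came last with 3.74 ± 1.71 FPKM, the 24.6th percentile, and its highest WT library (5.09 FPKM) lay below the lowest of Tap1 (12.8 FPKM), although the products of both genes are needed for a working transporter.

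**Figure D1:**
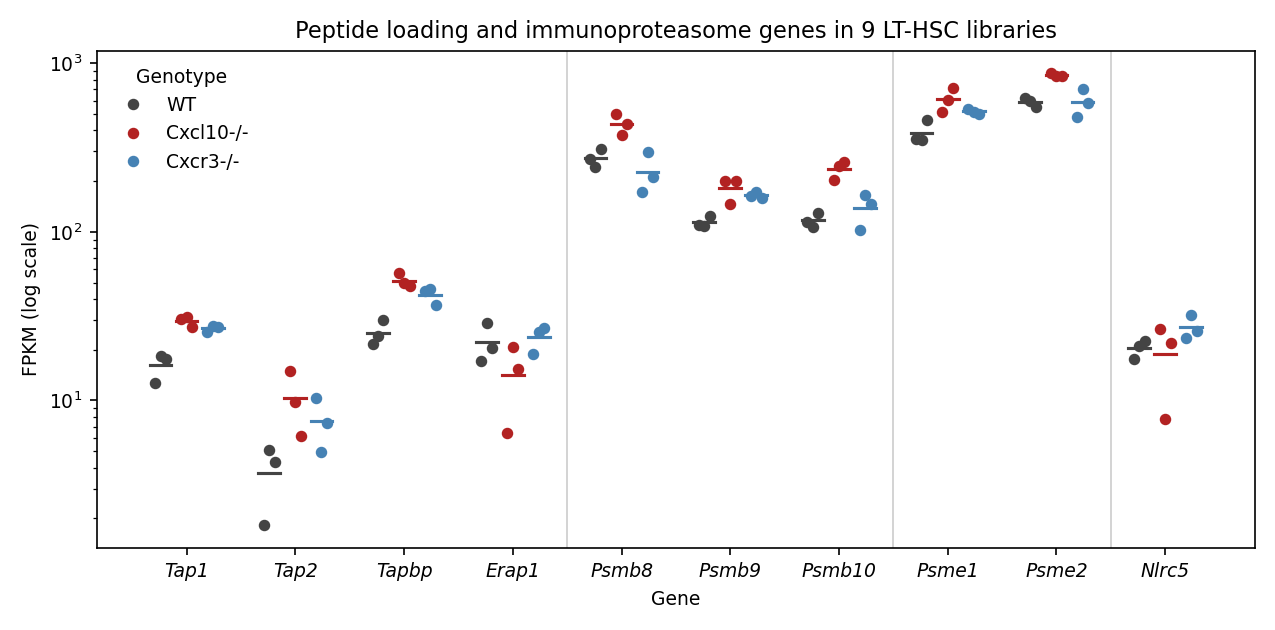
FPKM of the 10 genes (log scale) in each of the 9 libraries; points are single mice, short bars are group means, and grey lines part the genes by role. Tap1 and Tapbp stand above all WT libraries in both knockouts, while Psmb8 and Psmb10 stand above WT without overlap in Cxcl10-/- (red) and not in Cxcr3-/- (blue).

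The comparison of Cxcl10-/- with WT asks what loss of the chemokine changes. Tapbp, Psmb10, Psmb9 and Psme1 rose in Cxcl10-/- cells, between 1.58-fold (Psme1) and 1.95-fold (Tapbp). These were 4 of the 10 genes by edgeR's quasi-likelihood test at a Benjamini-Hochberg adjusted p under 0.05, a rule that called 3.52% of all tested genes higher. None of the 10 fell, against 3.7% of all genes called lower. In the deposited FPKM 8 of the 10 genes, all but Erap1 and Nlrc5, had every Cxcl10-/- library above every WT library, which held for 18.3% of all genes. The median log2 fold change was 0.67 over the 10 genes and 0.06 over all genes.

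Among the loading genes, Tapbp stood at 21.5, 24.2 and 30 FPKM in WT and at 57, 49.5 and 47.7 FPKM in Cxcl10-/-. All 3 knockout libraries were above all 3 WT libraries, and the log2 fold change was 0.96 ± 0.20 (SE; edgeR adjusted p = 0.0149). Tap1 stood at 12.8, 18.3 and 17.7 FPKM in WT and at 30.6, 31.1 and 27.3 FPKM in Cxcl10-/-. Its groups did not overlap either, but with 0.78 ± 0.22 and an edgeR adjusted p of 0.051 it did not pass. Tap2 stood at 1.82, 5.09 and 4.3 FPKM in WT and at 14.9, 9.81 and 6.12 FPKM in Cxcl10-/-. Its log2 fold change of 1.37 ± 0.47, the largest of the 10, had an edgeR adjusted p of 0.0955, and the Cxcl10-/- libraries differed among themselves more than 2-fold. Erap1, whose product trims the peptides, had the only negative value of this role: it stood at 17.2, 28.8 and 20.5 FPKM in WT and at 6.38, 20.8 and 15.3 FPKM in Cxcl10-/-. The groups overlapped, replicate 1 of Cxcl10-/- was the lowest of all 9 libraries, and the difference of -0.59 ± 0.34 did not pass (edgeR adjusted p = 0.323). It was -0.24 without Cxcl10-/- replicate 1, -0.94 without Cxcl10-/- replicate 2 and -0.01 with offsets for GC content and length.

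All 3 immunoproteasome subunit genes lay higher in Cxcl10-/- without overlap. Psmb10 stood at 114, 107 and 129 FPKM in WT and at 204, 247 and 260 FPKM in Cxcl10-/-, a rise of 0.93 ± 0.21 (log2, SE; edgeR adjusted p = 0.0215). Psmb9 stood at 109, 108 and 124 FPKM in WT and at 201, 146 and 201 FPKM in Cxcl10-/- (0.68 ± 0.17, edgeR adjusted p = 0.0378). These were the subunit genes that passed. Psmb8 stood at 269.85, 244.00 and 308.30 FPKM in WT and at 501, 378 and 438 FPKM in Cxcl10-/-, and with 0.63 ± 0.18 it had an edgeR adjusted p of 0.0595.

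Of the PA28 activator genes, Psme1 stood at 354, 352 and 458 FPKM in WT and at 514, 607 and 715 FPKM in Cxcl10-/- (0.66 ± 0.17, edgeR adjusted p = 0.0401). Psme2 stood at 623, 594 and 547 FPKM in WT and at 872, 836 and 837 FPKM in Cxcl10-/-. The libraries of Psme2 did not overlap, and its log2 fold change of 0.44 ± 0.16 did not pass (edgeR adjusted p = 0.115). Psme2 has a near-identical copy, Psme2b, listed at 2.31 to 22.03 FPKM over the 9 libraries, and reads split between them make the value of Psme2 uncertain. The transactivator gene Nlrc5 stood at 17.7, 20.9 and 22.5 FPKM in WT and at 26.7, 7.78 and 22.1 FPKM in Cxcl10-/-. Replicate 2 was the lowest of all libraries while replicate 1 was above WT, so that the groups overlapped (-0.23 ± 0.40, edgeR adjusted p = 0.769).

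The number of genes that passed changed when WT libraries were left out and with offsets for base composition. Without WT replicate 1 or 2 none of the 10 passed and without WT replicate 3 only Tapbp did, while 229, 193 and 253 of all genes were called in place of 785. Without Cxcl10-/- replicate 3 or without Cxcr3-/- replicate 3, Tapbp and Psmb10 passed. Of the 10 genes, 9 had a longest GENCODE M21 transcript with a GC content above the median of the tested genes (49.1%), Erap1 (41.5%) being the exception. The offsets were taken from that longest transcript, which is not always the length behind the deposited values. For Psmb9 it has 2884 bases, while the deposited count and FPKM imply 872 to 1264. With offsets for GC content and length, only Psmb10 passed (0.66, edgeR adjusted p = 0.0324; Tapbp 0.69 with 0.0503), and 594 of 750 calls over all genes were higher, against 383 of 785 without the offsets. On log2(FPKM + 1), limma called 6 of the 10 higher (Tap1 and Psme2 in addition) and 6.1% of all genes, with 663 of 1008 calls higher; DESeq2 called 7 (Tap1, Tap2 and Psmb8 in addition) and 6.61% of all genes higher. The direction of the 8 positive genes was kept in all 19 alternatives.

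**Figure D2:**
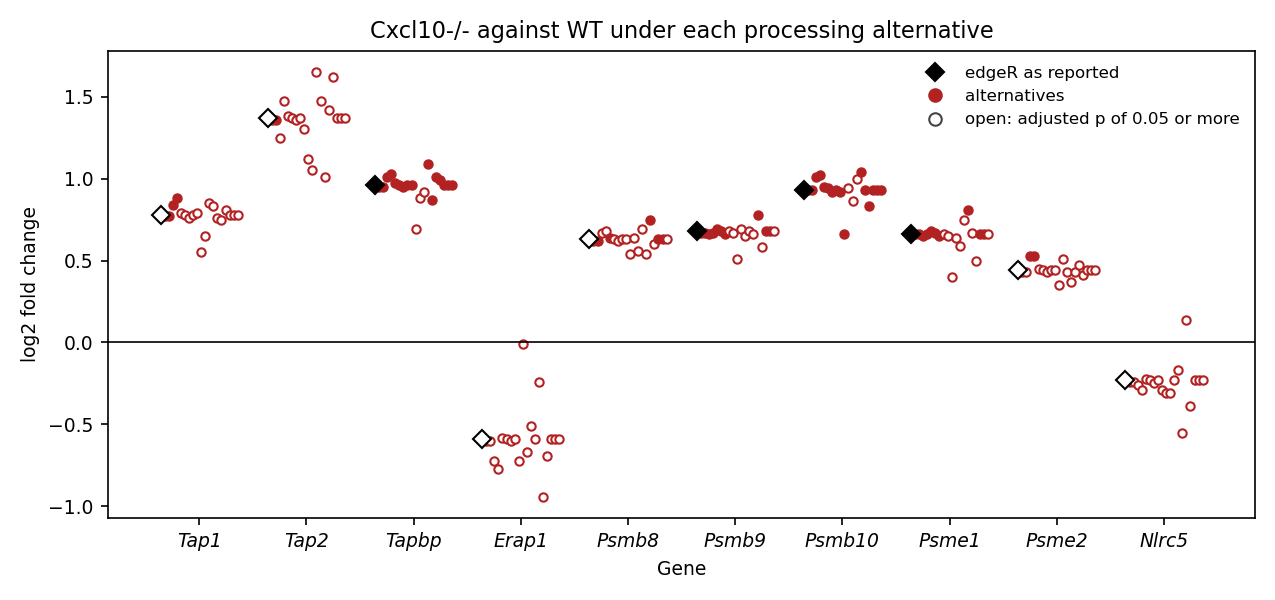
Log2 fold change of each gene in Cxcl10-/- against WT as reported (black-edged diamonds) and under 19 processing alternatives (red circles); filled symbols passed at an adjusted p under 0.05. Tapbp passed in 16 of the 19 alternatives, Psmb10 in 16, Psmb9 in 10 and Psme1 in 10, and the sign of Nlrc5 turned in 1.

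The comparison of Cxcr3-/- with WT asks what loss of the receptor changes; it shares its WT libraries with the comparison above. None of the 10 genes passed, and edgeR and limma called 0 of the 10866 tested genes, that is 0% of the background, with 681 genes (edgeR) and 834 (limma) at an unadjusted p under 0.05. DESeq2 called 68 genes, 0.626% of all, and none of the 10, of which Tap2 and Nlrc5 were given no adjusted p. The largest differences were in the loading genes. Tapbp stood at 44.8, 45.7 and 37 FPKM in Cxcr3-/-, above every WT library, with a log2 fold change of 0.69 ± 0.20 (edgeR unadjusted p = 0.00431, adjusted p = 0.642). Tap1 stood at 25.5, 27.7 and 27.3 FPKM, also above every WT library, with 0.68 ± 0.22 (edgeR unadjusted p = 0.00884, adjusted p = 0.655). Tapbp and Tap1 were the 2 members with an unadjusted p under 0.05, a share that over all genes was 6.27%. Tap2 stood at 10.4, 4.94 and 7.32 FPKM and overlapped WT (0.96 ± 0.47, edgeR adjusted p = 0.826). Erap1 stood at 18.8, 25.5 and 26.9 FPKM, within the range of WT (0.18 ± 0.34).

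Psmb8 stood at 173, 299 and 212 FPKM in Cxcr3-/-, with replicates 1 and 3 below and replicate 2 within the WT range (-0.16 ± 0.18). Psmb10 stood at 102, 166 and 147 FPKM and overlapped WT (0.19 ± 0.21), and Psme2 at 482, 707 and 583 FPKM, on both sides of the WT values (-0.06 ± 0.16). Nlrc5 stood at 23.6, 32.4 and 25.7 FPKM, each above the WT libraries (0.37 ± 0.40). Counting FPKM alone, 5 of the 10 genes (Tap1, Tapbp, Psmb9, Psme1 and Nlrc5) had every Cxcr3-/- library above every WT library, against 12.1% of all genes. For Psmb9 and Psme1 the counts did not show that difference: Psmb9 stood at 164, 172 and 159 FPKM and Psme1 at 537, 514 and 502 FPKM, but the count-based log2 fold changes were 0.23 ± 0.17 and 0.05 ± 0.17, against 0.53 ± 0.17 and 0.42 ± 0.15 on log2(FPKM + 1) in limma.

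**Figure D3:**
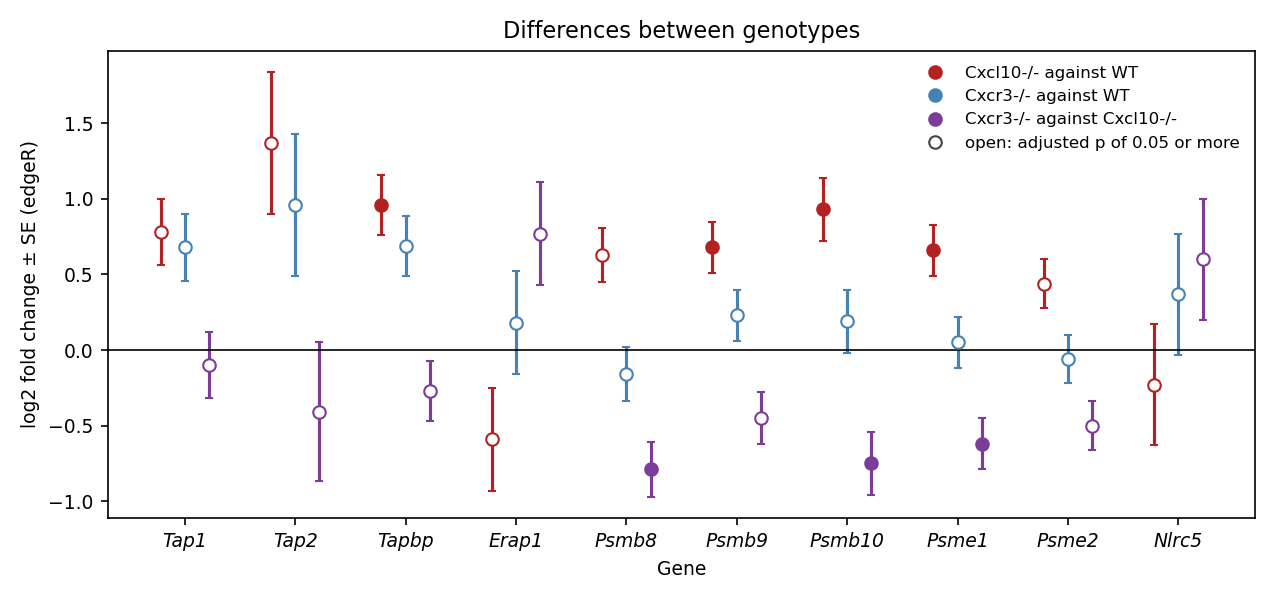
Log2 fold changes with standard errors from edgeR for the 10 genes in the 3 comparisons; filled points passed at an adjusted p under 0.05. Tap1 and Tapbp lie at 0.68 to 0.96 in both knockouts against WT, whereas Psmb8, Psmb10 and Psme1 lie at -0.62 to -0.79 in Cxcr3-/- against Cxcl10-/-.

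The gap between counts and FPKM can be read from the length that the 2 deposited values imply, the count divided by the FPKM and by the library total. For Psmb10, Psmb6 and Psmb7 that length was the same in all 9 libraries (1311, 798 and 1160 bases), so the FPKM of these genes were scaled by the total of the counts in the table. For Psme1 it was 988, 966 and 929 bases in WT, 974, 1056 and 1019 in Cxcl10-/- and 721, 861 and 743 in Cxcr3-/-. For Psmb9 it was 1120, 1130 and 1019 bases in WT, 1082, 1264 and 1132 in Cxcl10-/- and 884, 986 and 872 in Cxcr3-/-. Psmb8 went the other way, with 1347, 1389 and 1327 bases in WT, 1387, 1378 and 1393 in Cxcl10-/- and 1614, 1435 and 1552 in Cxcr3-/-. In all 3 genes the Cxcr3-/- libraries lay outside the range of the other 6 (two-sided exact permutation p = 0.1 for each compared with WT, as low as 3 libraries per group can give). The share of all genes separated in this way was not computed. Tap2 also reached an exact permutation p of 0.1 against WT, at a log2 difference of 0.00, so separation alone can come with a trivial difference. The log2 difference from WT was -0.31 for Psme1, -0.25 for Psmb9 and 0.18 for Psmb8, larger in size than in 95.4%, 93.4% and 90% of 10612 genes. These 3 genes were singled out after their values were seen, and which transcripts the lengths stand for was not tested.

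**Figure D4:**
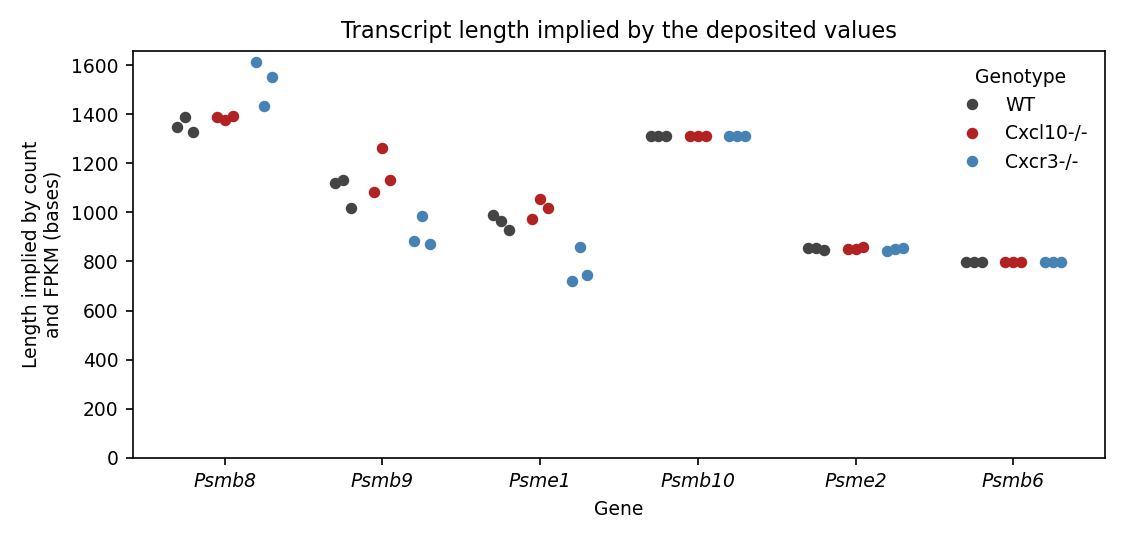
Transcript length in bases implied by the deposited count and FPKM of 6 genes in each library, by genotype. In Cxcr3-/- (blue) the implied length of Psmb8 is above, and that of Psmb9 and Psme1 below, all other libraries, while those of Psmb10, Psme2 and Psmb6 hardly move.

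The knockouts were then compared with each other, which tests the difference between loss of the receptor and loss of the chemokine directly. Psmb8 (-0.79 ± 0.18, edgeR adjusted p = 0.0203), Psmb10 (-0.75 ± 0.21, 0.0398) and Psme1 (-0.62 ± 0.17, 0.0409) were lower in Cxcr3-/- than in Cxcl10-/-, between 1.53-fold and 1.73-fold. They were 3 of the 10 genes, where 5.41% of all genes were called lower; none of the 10 was called higher, against 5.1% of all genes. In FPKM, 4 of the 10 genes (Tapbp, Psmb8, Psmb10 and Psme2) had every Cxcr3-/- library below every Cxcl10-/- library, against 16.4% of all genes. The transporter and chaperone genes did not pass: Tap1 differed by -0.10 ± 0.22 (edgeR adjusted p = 0.818), Tap2 by -0.41 ± 0.46 (0.621) and Tapbp by -0.27 ± 0.20 (0.41), none of which shows that the knockouts are alike. The value of Tap2 was -0.06 without Cxcl10-/- replicate 1, -0.19 without Cxcr3-/- replicate 2, -0.66 without Cxcl10-/- replicate 3 and -0.69 without Cxcr3-/- replicate 1. Psmb9 (-0.45 ± 0.17, edgeR adjusted p = 0.119) and Psme2 (-0.50 ± 0.16, 0.0682) did not pass. Erap1 (0.77 ± 0.34, edgeR adjusted p = 0.176) and Nlrc5 (0.60 ± 0.40, 0.375) had positive values and did not pass.

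Of these calls that of Psme1 was the most dependent on the unit, since limma on log2(FPKM + 1) gave it -0.23 ± 0.15 (adjusted p = 0.359) and called Psmb8, Psmb10 and Psme2 instead, with 7.81% of all genes lower (849 of 1359 calls, against 588 of 1142 in edgeR); DESeq2 called all 4, with 8.79% of all genes lower. None of the 10 passed without Cxcr3-/- replicate 1 or 3, or with only these 6 libraries in the fit. Psmb8 alone passed with the GC content and length offsets (794 of 1089 calls lower) and without any one of WT replicates 1, 2 and 3 or Cxcl10-/- replicates 2 and 3.

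Each immunosubunit takes the place of 1 constitutive subunit, so their ratio within a library does not depend on the library's total, though it does on any correction that differs between genes. The constitutive genes did not move together. Psmb6 stood at 970, 919 and 876 FPKM in WT, 1335, 1345 and 1616 in Cxcl10-/- and 672, 825 and 880 in Cxcr3-/-: it was higher in Cxcl10-/- than in WT without overlap (0.55 ± 0.15, edgeR adjusted p = 0.0502) and fell from Cxcl10-/- to Cxcr3-/- (-0.83 ± 0.15, 0.00782). In Cxcl10-/- against WT, Psmb6 passed in 8 of the 19 alternatives. Among these were limma on log2(FPKM + 1) (adjusted p = 0.0132), DESeq2 (adjusted p = 0.0114) and the GC content and length offsets (0.52, edgeR adjusted p = 0.032). Psmb5 (-0.09 ± 0.23) and Psmb7 (0.09 ± 0.21) did not pass in Cxcl10-/- against WT. In Cxcr3-/- against WT the values were 0.14 ± 0.23 for Psmb5, -0.28 ± 0.15 for Psmb6 and -0.08 ± 0.21 for Psmb7, of which none passed.

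The ratio of Psmb10 to Psmb7 was 1.34, 1.42 and 1.58 in WT, 2.27, 3.08 and 2.51 in Cxcl10-/- and 1.4, 1.79 and 2 in Cxcr3-/-. Cxcl10-/- lay above both other genotypes without overlap (log2 differences of 0.85 from WT and -0.60 for Cxcr3-/- minus Cxcl10-/-). The longest transcript of Psmb7 has 40.8% GC and that of Psmb10 56.5%. Ratios per library were not computed with the GC content and length offsets. With these offsets, the edgeR log2 fold changes of Cxcl10-/- against WT were 0.66 for Psmb10 and 0.74 for Psmb7. Without them they were 0.93 and 0.09. Those of Cxcr3-/- against Cxcl10-/- were -0.41 and -0.68 with the offsets. Whether the 2 genes differ under the offsets was not tested. The offsets took the longest transcript, 2849 bases for Psmb7, where the deposited values imply 1160, so its offset values are uncertain. The ratio of Psmb8 to Psmb5 was 1.55, 1.35 and 1.94 in WT, 4.23, 1.88 and 2.11 in Cxcl10-/- and 0.783, 1.51 and 1.13 in Cxcr3-/-. Here Cxcl10-/- and Cxcr3-/- did not overlap (-1.22), and the 4.23 of Cxcl10-/- replicate 1 came with the lowest Psmb5 of all libraries, 118 FPKM. With the offsets, the edgeR log2 fold changes of Cxcr3-/- against Cxcl10-/- were -0.60 for Psmb8 and 0.61 for Psmb5. The ratio of Psmb9 to Psmb6 was 0.113, 0.118 and 0.142 in WT, 0.15, 0.108 and 0.124 in Cxcl10-/- and 0.244, 0.208 and 0.18 in Cxcr3-/-. Like that of Psmb8 to Psmb5, it overlapped between Cxcl10-/- and WT (0.04). In FPKM it was highest in Cxcr3-/- (0.76 above WT and 0.73 above Cxcl10-/-). From the counts these differences were 0.51 and 0.39, and Cxcr3-/- then overlapped Cxcl10-/- (exact two-sided permutation p = 0.2). With the GC content and length offsets, the log2 fold changes in Cxcr3-/- against WT were 0.13 for Psmb9 and -0.05 for Psmb6. Against Cxcl10-/- they were -0.39 and -0.58. In exact two-sided permutation tests 5 of the 9 differences reached p = 0.1, the smallest possible with 3 against 3 libraries, and adjusted over the 9 tests their p was 0.18. No ratio could therefore pass at 0.05.

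**Figure D5:**
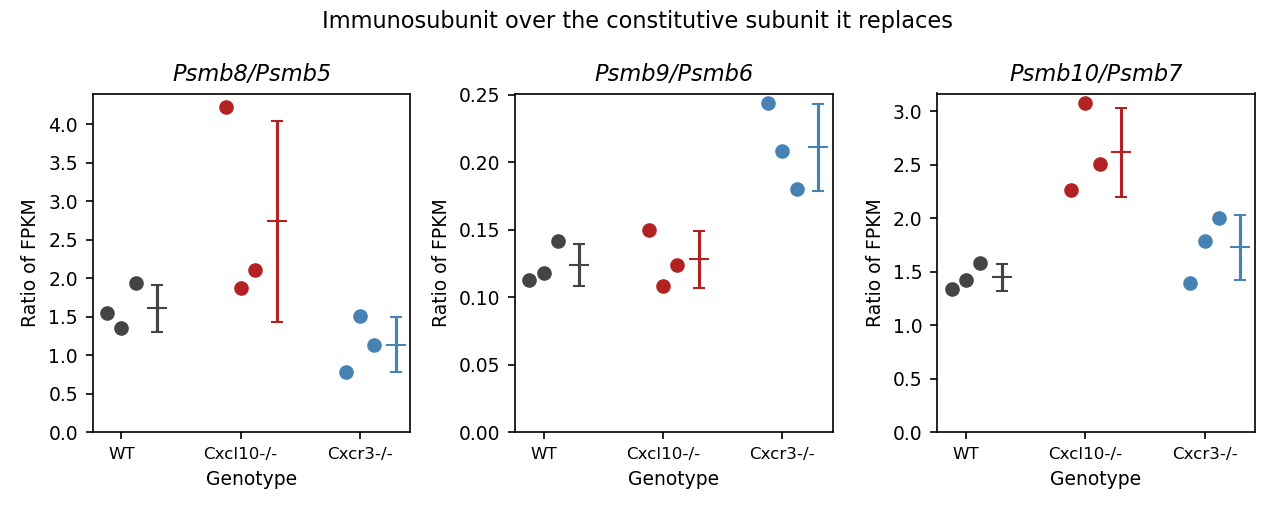
Ratio of the FPKM of each immunosubunit gene to that of the constitutive subunit gene it replaces, per library (points) with mean and SD (n = 3) beside them, by genotype. Psmb10/Psmb7 is highest in the 3 Cxcl10-/- libraries (2.27 to 3.08) and Psmb9/Psmb6 in the 3 Cxcr3-/- libraries (0.18 to 0.244). From the counts, Psmb9/Psmb6 overlaps between Cxcr3-/- and Cxcl10-/-.

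The rest of the pathway moved unevenly, with edgeR's calls over all genes counted for each list; the lists are small, and their counts are to be read beside the 3.52% of all genes called higher and 3.7% called lower in Cxcl10-/- against WT. In Cxcl10-/- against WT, 2 of 16 genes of the 20S core and its assembly rose, the core subunit gene Psma7 (0.75 ± 0.20) and the assembly chaperone gene Psmg4 (0.86 ± 0.24), and none fell. Of 21 genes of the 19S regulator and other activators 3 rose, the ATPase genes Psmc5 (1.51 ± 0.25) and Psmc3 (0.95 ± 0.19) and the scaffold subunit gene Psmd3 (1.30 ± 0.34), while the ATPase gene Psmc6 fell from 123 ± 18.9 to 64.3 ± 17.9 FPKM. Of 10 other genes of class I loading and quality control, Calr alone rose, from 73.8 ± 11.2 to 136 ± 5.83 FPKM (0.79 ± 0.17, adjusted p = 0.0194); its product calreticulin holds class I molecules in the loading complex. None of 7 cytosolic peptidase genes passed (median 0.44). The medians of these 4 lists were 0.11, 0.25, 0.39 and 0.44, beside 0.06 over all genes.

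The called class I chains went both ways in Cxcl10-/- against WT. Of 9 tested, H2-K1 rose from 1188 ± 95.9 to 1736 ± 27.1 FPKM (0.44 ± 0.10, edgeR adjusted p = 0.026). B2m, the light chain common to all class I molecules, fell from 9961 ± 561 to 4636 ± 473 FPKM (-1.20 ± 0.14, 0.00143). The median of the 9 was 0.22, beside 0.06 over all genes. In Cxcr3-/- H2-K1 stood at 1648 ± 13.4 and B2m at 9276 ± 1953 FPKM, and neither passed against WT. None of 12 class I and II transactivation genes and none of 11 genes of the interferon gamma receptor and its signalling passed in Cxcl10-/- against WT (medians 0.03 and 0.14), beside shares of 3.52% and 3.7% over all genes. Of 28 interferon-induced genes 1 rose, the ubiquitin-like gene Ubd, from 2.94 ± 2.65 to 87.3 ± 11.1 FPKM (edgeR adjusted p = 0.0367), and 1 fell, the guanylate-binding protein gene Gbp5, from 2.21 ± 0.656 to 0.0667 ± 0.0987 FPKM (0.0323). These counts are near the shares of all genes called (3.52% higher, 3.7% lower) and are no result about the list, whose median was 0.15.

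In Cxcr3-/- against Cxcl10-/-, 5.41% of all genes were called lower and 5.1% higher. Psma7 (-1.03 ± 0.20) and the maturation factor gene Pomp (-0.79 ± 0.16) among 16 core and assembly genes, and 5 of 21 regulator genes, by p Psmc5 (-1.83 ± 0.25), Psmc3 (-1.14 ± 0.19), Psmd4 (-1.37 ± 0.29), Psmc2 (-1.28 ± 0.29) and then Psmd7, were lower and none higher. The medians of these lists were -0.40 and -0.53, beside -0.05 over all genes. Of the 10 loading and quality control genes, Pdia3 (-1.06 ± 0.25), Bcap31 (-1.04 ± 0.25) and Uggt1 (-0.86 ± 0.24) were lower and Canx (0.56 ± 0.12) higher. B2m was higher (1.03 ± 0.14), as were Nfkb1 (1.42 ± 0.26) among the transactivation genes and Gbp3 and Gbp5 among the interferon-induced ones, where Ubd and Oas1a were lower. None of the peptidase or interferon signalling genes passed. In Cxcr3-/- against WT no gene of any of these lists passed.

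Across the 9 libraries, the genes whose log2 CPM was most like that of Tap1 were Irf1 (Pearson r 0.942), H2-D1 (0.932) and Atp13a2 (0.931), with Tapbp ranked 4 (0.93). As the libraries fall into 3 genotypes, of which WT held the 3 lowest Tap1 FPKM, the values are a description without a test. After each genotype's mean was taken off, r was 0.86 for Irf1, 0.94 for H2-D1, 0.69 for Atp13a2 and 0.43 for Tapbp. Psmb9, which shares its upstream interval with Tap1, ranked 424 (0.69, and -0.13 within genotypes), and Psmb8, its neighbour on the other side, ranked 2360 (0.35).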

How the data were processed

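RNA-seq of 9 sorted LT-HSC libraries was analysed, 3 mice per genotype. Per the file headers, the authors deposited FPKM and counts per gene and library. The deposited counts are expected counts judging by the values, of which 87.1% are whole. Per the submitters' processing notes fastp, HISAT2, StringTie and RSEM were used; the sources used here give no versions, roles, build or annotation.

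Expected counts were rounded and fitted with edgeR 4.0.16 (R 4.3.3; TMM, quasi-likelihood test, 1 mean per genotype, all 9 libraries) over genes averaging 1 FPKM or more, with Benjamini-Hochberg adjustment over all of them and a threshold of 0.05. SE is the log2 fold change divided by the root of its F. DESeq2 1.42.0 and limma 3.58.1 on log2(FPKM + 1) were alternatives; log2(FPKM + 1) understates changes of low genes. Ratios used FPKM and exact permutation tests. The fit was tested on simulated data. No block was used: the sources tie replicate numbers to no litter or day. Nothing given ties preparation to batches, so no within-batch value exists.

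All members and the constitutive subunits are named; of other lists, up to 4 genes that passed, by p, are named, and for Tap1 the 3 most correlated genes. Members and lists were chosen with earlier results of these data known. Counts carry no molecular identifiers, and errors between libraries are between mice. Nrdc and H2-L were not analysed here.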

Additional observations from a re-analysis of the deposited data

How the results depend on the processing

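In Cxcl10-/- against WT, 4 of the 10 genes (members) and 785 genes in all were called. DESeq2 called 7 and 1498, a fit of only the 2 genotypes 2 and 414, a replicate block 2 and 442, and GC content and length offsets 1 member; without a filter 1183 genes were called. Leaving out 1 library gave 0 to 5 members and 193 to 1003 genes. In Cxcr3-/- against WT, 0 genes were called, 68 in DESeq2, 38 without a filter and 0 to 6 with 1 library left out (6 without Cxcr3-/- replicate 2), and 0 members under every alternative run. DESeq2 gave Tap2 and Nlrc5 no adjusted p in that comparison. In Cxcr3-/- against Cxcl10-/-, 3 members and 1142 genes were called; DESeq2 called 1814 genes, the fit of 2 genotypes 0 members and 423 genes, the offsets 1 member, and leaving out 1 library gave 0 to 3 members and 423 to 1407 genes. For the losses with GC offsets the cause was not tested; the fit of 2 genotypes has fewer samples.

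Signs turned only for differences that had not passed. Leaving out 1 library gave -0.55 to 0.14 for Nlrc5, -0.26 to 0.16 for Psmb5 and -0.05 to 0.19 for Psmb7 in Cxcl10-/- against WT, -0.04 to 0.14 for Psme1 and -0.22 to 0.09 for Psme2 in Cxcr3-/- against WT, -0.02 to 0.40 for Psmb5 in Cxcr3-/- against Cxcl10-/-, and -0.09 to 0.15 for the log2 ratio of Psmb9 to Psmb6 in Cxcl10-/- against WT. With the offsets, Psme2 stood at 0.13 and Psmb7 at 0.06 in Cxcr3-/- against WT. Same-numbered libraries did not deviate together (r of deviations from group means between -0.0836 and 0.0191), and unlike-numbered ones gave -0.0377 to 0.082. This gave no sign that the numbers pair the mice, but it cannot exclude a shared litter or day. Under the replicate block Tapbp and Psmb10 passed in Cxcl10-/- against WT, and Psmb8 and Psmb10 in Cxcr3-/- against Cxcl10-/-. Tap2, with 90 to 695 counts per library, was the least precise member.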
